A study of Homo sapiens with 6 samples.

Results

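The genes described here are 30 well-known transcriptional targets of the tumour suppressor p53, followed in C4-2 cells with and without a CRISPR-Cas9 knockout of CDK12. They were taken as a fixed list of symbols and matched by Ensembl identifier, and all 30 have a row among the 62696 genes counted. C4-2 cells derive from the prostate cancer line LNCaP and grow in the absence of androgen (castration resistance). The series asked what loss of CDK12, a kinase of RNA polymerase II, does to such cells. The design text speaks of a knockout and the series title of a knockdown, and the sample names of CDK12KO are followed here. The series holds 3 libraries of cells carrying the vector (labelled WT) and 3 libraries of CDK12 knockout cells. Both groups were grown without treatment, and the labels do not say whether the knockout line is 1 clone or a pool, or whether the replicates were separate cultures. The p-values therefore cover the spread among these libraries alone, perhaps only technical spread. The effect of the knockout and any other difference between the lines cannot be told apart.

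p53 is a transcription factor that is kept scarce by the ubiquitin ligase MDM2 and accumulates when DNA is damaged or ribosome assembly fails. It binds paired copies of a short half-site and switches on genes for cell cycle arrest, apoptosis, DNA repair and metabolism, and also genes that shut it off again. Because MDM2 is both its target and its inhibitor, a lasting rise in p53 activity usually shows in MDM2 and in the cell cycle inhibitor gene CDKN1A (p21). CDK12 is known to sustain the transcription of DNA repair genes, so its loss is a setting where p53 output is of interest.

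The sites shown here are the stretches of member promoters that hold the p53 half-site consensus or a core pair, meaning 2 cores of 4 bases (C, then 2 bases that are each A or T, then G) with 6 bases between them. Each half-site holds 1 core, so the motifs overlap. Both strands were searched in RefSeq windows of 300 bases (250 before and 50 after each listed start, GRCh38.p14), which exist for 24 of the 30 members. The half-site was found in 6 of these 24 genes (25%), against 8.06% of 27305 genes with a window, and the core pair in 4 (16.7%), against 5.85%. Each stretch is 30 bases, 5′ to 3′ on the gene's strand, with the matched bases in capitals.
GDF15: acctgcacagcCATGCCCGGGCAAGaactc
DDB2: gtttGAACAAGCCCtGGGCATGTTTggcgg
FDXR: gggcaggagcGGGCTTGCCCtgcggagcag
AEN: ggagccGGGCTTGCCCGGGCATGtgggagc
FAS: actcctGGACAAGCCCTGACAAGccaagcc
SESN1: tcgtctGGACAAGTCTCCACAAGtcagaaa
PLK2: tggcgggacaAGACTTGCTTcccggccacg

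The GDF15 stretch lies at chr19:18386178-18386207 on the plus strand, and its core pair begins at base 32 of the transcript. The DDB2 stretch, chr11:47214975-47215004 on the plus strand, holds 2 half-sites with 1 base between them, beginning at base 6 of the transcript. Such a pair, with 0 to 13 bases between half-sites, was found in 10 of 35116 windows (0.0285%), and DDB2 was the only member among them. The FDXR half-site (stretch chr17:74872986-74873015, minus strand) begins 11 bases before the start, and the AEN match (chr15:88621300-88621329, plus strand) begins 34 bases before it. In FAS (chr10:88991303-88991332, plus strand) the match begins 122 bases before the listed start. In SESN1 (chr6:109009014-109009043, minus strand) the distance is 49 bases and in PLK2 (chr5:58460199-58460228, minus strand) 132 bases. A match is a description of letters and not evidence of binding, and many known p53 sites, such as those upstream of CDKN1A, lie outside such windows.

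Sequencing gave 24660798 to 30732841 reads a library, and 16617644 to 21590817 of them fell in genes. CDK12 RNA was at 60.2, 48.0 and 57.1 CPM in vector libraries 1 to 3 and 60.8, 56.9 and 56.5 CPM in knockout libraries 1 to 3 (log2 fold change 0.08, edgeR adjusted p = 0.709), and counts over a whole gene cannot check a small break in its coding sequence. CPM is the count relative to the reads counted in that library, per 1000000, with TMM factors (edgeR's correction for library composition). Knockout library 2 stood apart. Its log2 CPM correlated with the other libraries at r = 0.916 to 0.950 across genes, against 0.977 to 0.990 among the other 5, and its TMM factor was 0.737 against 1.04 to 1.10. Results are therefore given with all 6 libraries and without it. The prostate marker KLK3 was at 4307 to 5847 CPM over the libraries. Of 10 such markers 0 passed in edgeR with all libraries (DESeq2, a second test, called 1 lower). Without knockout library 2, 6 of the 10 fell (60.0%) and 0 rose, beside 8.88% and 10.2% of all genes tested in that fit. Of 12 markers of immune, stromal, endothelial and basal cells, CD3E, DCN, PECAM1 and TP63 had no read in any library. The 12 summed to 26 to 27.4 CPM in the vector libraries and to 28, 38.2 and 36.6 in the knockout libraries, mostly from COL1A1. COL1A2 had 22, 20 and 10 reads in the vector libraries and 0 in each knockout library, and VWF was at 5.12, 4.20 and 4.51 CPM with the vector and 6.61, 10.3 and 7.76 CPM after knockout. COL1A2 fell and VWF rose in the fit without knockout library 2 (edgeR adjusted p of 0.000704 and 0.0263). Their part in the results was not tested.

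A minority of p53 targets rose in the knockout libraries. CDKN1A and MDM2, the members most used as readouts of p53, did not pass the test, and their 95% intervals held both 0 and a rise. Whether p53 activity differed was not tested. Of 30 members 28 had enough counts to be tested. TNFRSF10C, with 4 reads over the vector and 1 over the knockout libraries, and EDA2R, with 1 and 1, did not. With all 6 libraries 1 of the 28 members rose, GDF15, and 0 fell in edgeR's quasi-likelihood test at an adjusted p of 0.05. Among all 15783 genes tested 0.418% rose and 0.177% fell. Without adjustment 6 members were higher and 2 lower at a p below 0.05, and DESeq2 called 4 higher (GDF15, BAX, BBC3 and PHLDA3) and 0 lower. Of the 15783 genes 3420 had an unadjusted edgeR p below 0.05 in either direction. DESeq2 called 488 of them higher and 214 lower. These counts are also the background for the gene lists further below. Without knockout library 2, 7 of 28 members rose (25%) and 1 fell (3.57%), against 10.2% and 8.88% of 16339 genes tested. The 7 were GDF15, BAX, BBC3, PHLDA3, FDXR, TP53INP1 and DDB2, and the 1 that fell was CCNG1. Fewer members were called when knockout library 1 or 3 was left out as well, and the share of all genes called there is not given. In knockout library 2 each of these 8 genes lay on the same side of the vector mean as in the other knockout libraries. That was so for 94.5% of the 3123 genes called without that library. TP53INP1 lay above the vector mean by a log2 of only 0.01 in knockout library 2, within the vector range. Each comparison used the same vector libraries.

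**Figure D1:**
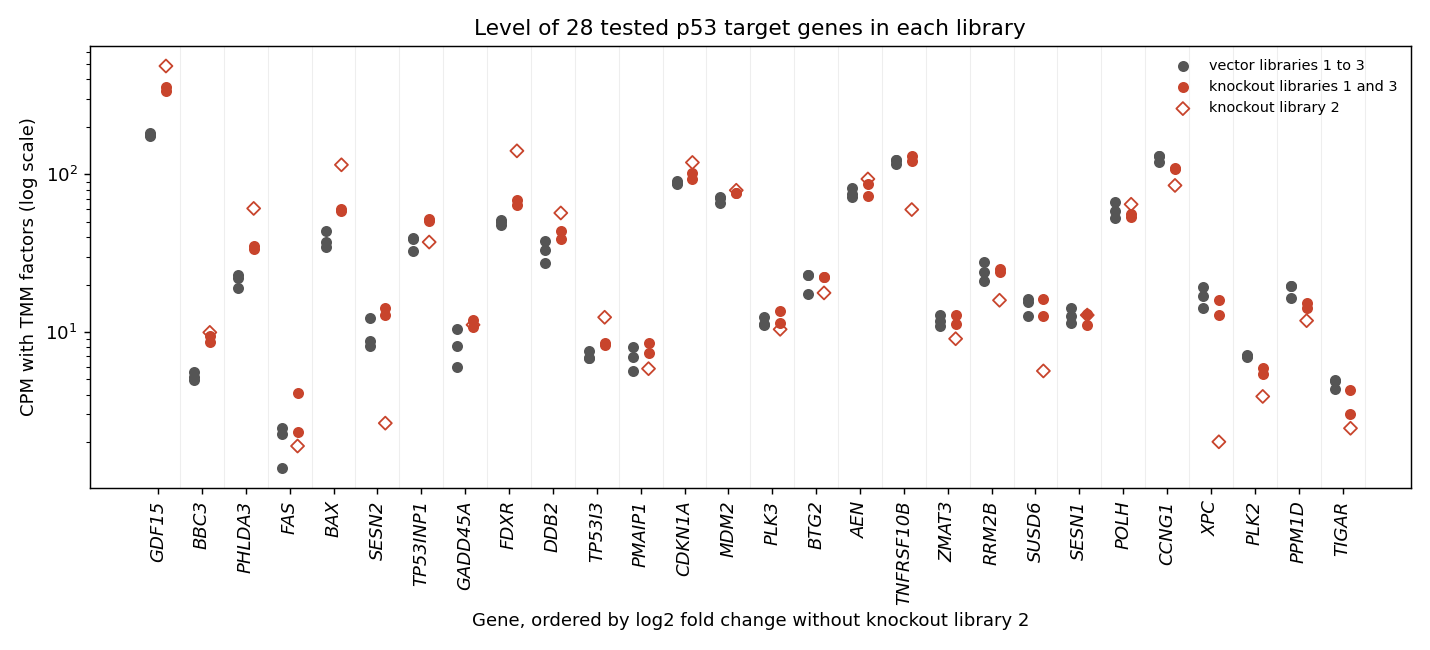
Each column is 1 of the 28 tested p53 target genes and each point 1 library, on a logarithmic axis of CPM (scaled with TMM factors). Grey points are the vector libraries, red points knockout libraries 1 and 3 and open diamonds knockout library 2. GDF15, BBC3, PHLDA3, BAX and FDXR are higher in all 3 knockout libraries than in any vector library. So, with narrower gaps, are CDKN1A, MDM2, DDB2, TP53I3 and GADD45A. Knockout library 2 is far below the rest in SESN2, XPC, SUSD6 and TNFRSF10B.

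Taken over the 28 tested members, the median log2 fold change was 0.06 with all libraries and 0.11 without knockout library 2, beside 0.00 and -0.01 over all genes tested. Single members ran from -0.71 to 1.15 and from -0.38 to 0.96. The CPM ranges of the 2 groups did not overlap for 14 members, 10 higher (35.7%) and 4 lower (14.3%) in the knockout libraries, beside 20.4% and 19.0% of all genes tested. Set against the vector mean, the median member stood at 0.12 in knockout library 1, -0.12 in library 2 and 0.10 in library 3 (log2).

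GDF15 encodes a secreted stress cytokine of the TGF-beta superfamily that is measured in blood as a marker of tissue stress. GDF15 (ENSG00000130513.7, chromosome 19, 18374731 to 18389176, GRCh38 in GENCODE 29) was at 184, 177 and 174 CPM in vector libraries 1 to 3. The knockout libraries held 358, 487 and 339 CPM. Every knockout library was far above the highest vector library, and knockout library 2 was the highest. The vector mean was 178 ± 4.83 CPM and the knockout mean 394 ± 80.5 CPM (SD, n = 3 per group). GDF15 thus rose by 1.15 ± 0.17 on the log2 scale (fold change and its SE, as in all values given with ± below, with an edgeR adjusted p of 0.0468). That call was narrow. It ended under several alternatives, among them RLE size factors in place of TMM and fits in which vector library 1, 2 or 3 or knockout library 1 or 3 was left out (edgeR adjusted p up to 0.316), while the log2 fold change kept between 1.13 and 1.25 over the alternatives. Without knockout library 2 the rise was 0.96 ± 0.06 (edgeR adjusted p = 3.80e-09), and GDF15 then passed under each of 9 alternatives. Per kilobase of exon GDF15 was also the most abundant member, at 85.4 ± 2.31 CPM per kb in the vector libraries, with CCNG1 next at 40.8 ± 1.81 (SD, n = 3).

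CDKN1A encodes p21, the inhibitor of cyclin-dependent kinases that carries out much of the arrest by p53. CDKN1A (ENSG00000124762.14, chromosome 6, 36676460 to 36687339) was at 87.2, 88.5 and 90.2 CPM with the vector and 102, 119 and 93.9 CPM after knockout. The groups did not overlap, but the gap between vector library 3 and knockout library 3 was small. Knockout library 2 held 1895 CDKN1A reads of 21590817 in genes, a smaller share than any vector library. Its place above them rests on its TMM factor of 0.737. In the fits CDKN1A differed by a log2 of 0.24 ± 0.13 with all libraries and 0.14 ± 0.07 without knockout library 2 (edgeR adjusted p of 0.277 and 0.196). The 95% intervals ran from -0.05 to 0.54 and from -0.01 to 0.28. A small share of its exons (4.79%) overlaps the antisense transcript DINOL. The counts do not separate strands, so reads that fall in both genes were not counted. FAS, SESN1 and MDM2 likewise share 8.93%, 7.09% and 5.91% of their exonic bases with an antisense gene.

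MDM2, the ubiquitin ligase that holds p53 in check, was at 65.9, 71.3 and 72.0 CPM with the vector and 76.0, 79.3 and 75.7 CPM after knockout (ENSG00000135679.27, chromosome 12, 68808176 to 68850686). Here too the groups did not overlap and lay close together, and the place of knockout library 2 above the vector libraries rests on its TMM factor. Its log2 fold change was 0.14 ± 0.10 with all libraries and 0.12 ± 0.07 without knockout library 2 (adjusted p of 0.396 and 0.305 in edgeR, the latter with a 95% interval of -0.04 to 0.27). PPM1D encodes WIP1, a phosphatase that also switches p53 signalling off, and it lay on the other side. PPM1D was at 19.7, 16.4 and 19.7 CPM with the vector and 15.2, 11.8 and 14.1 CPM after knockout, without overlap. Its log2 fold change was -0.44 ± 0.16 with all libraries and -0.35 ± 0.13 without knockout library 2 (adjusted p of 0.212 and 0.0583 in edgeR).

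CCNG1 encodes cyclin G1, which recruits a phosphatase to MDM2. It was the only member to fall. CCNG1 was at 130, 120 and 130 CPM with the vector and 108, 85.1 and 109 CPM after knockout, and the groups did not overlap. With all libraries its log2 fold change was -0.32 ± 0.14 (edgeR adjusted p = 0.230). In the 5 libraries without knockout library 2 it fell by 0.22 ± 0.07 (edgeR adjusted p = 0.0306), a call that ended without the filter on low counts and when library 1 or 3 of either group was left out (edgeR adjusted p up to 0.222). TP53INP1, which encodes a nuclear protein that promotes activating phosphorylation of p53, rose in that fit. TP53INP1 was at 38.8, 32.7 and 39.3 CPM with the vector and 50.4, 37.2 and 52.2 CPM after knockout. Knockout library 2 sat within the vector range, and libraries 1 and 3 sat above it. The log2 fold change was 0.34 ± 0.16 with all libraries and 0.47 ± 0.10 without knockout library 2 (adjusted p of 0.264 and 0.00196 in edgeR, the latter at most 0.0403 over the alternatives).

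Members of the mitochondrial death pathway that rose were BAX and BBC3. BAX encodes the protein that permeabilises the outer mitochondrial membrane. BAX (ENSG00000087088.21, chromosome 19, 48954815 to 48961798) was at 34.4, 43.6 and 37.4 CPM with the vector and 58.4, 115 and 60.6 CPM after knockout. All knockout libraries lay above all vector libraries, and knockout library 2 was above the mean of the other knockout libraries by 0.95 on the log2 scale. With all libraries BAX differed by 1.02 ± 0.28 (log2, adjusted p = 0.163 in edgeR). Without knockout library 2 BAX rose by 0.63 ± 0.10 (edgeR adjusted p = 0.000140, at most 0.00504 over the alternatives).

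BBC3 encodes PUMA, a BH3-only protein that releases BAX from its BCL2 family inhibitors. BBC3 (chromosome 19, 47220822 to 47232766) was at 5.17, 5.60 and 4.94 CPM with the vector and 8.59, 9.94 and 9.41 CPM after knockout. Here knockout library 2 stood with the other 2, and the groups were well apart. For BBC3 the log2 fold change was 0.83 ± 0.16 with all libraries and 0.77 ± 0.17 without knockout library 2 (edgeR adjusted p of 0.0910 and 0.00358). Leaving out knockout library 3 as well ended the second call (edgeR adjusted p = 0.0706). PMAIP1, which encodes the BH3-only protein NOXA, ranged from 5.65 to 8.03 CPM in the vector libraries and from 5.85 to 8.53 in the knockout libraries. Its log2 fold change of 0.20 ± 0.18 without knockout library 2 did not pass (edgeR adjusted p = 0.494).

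The death receptor genes did not pass in either fit. TNFRSF10B, which encodes the TRAIL receptor DR5, was at 124, 117 and 123 CPM with the vector and 130, 59.8 and 122 CPM after knockout. Knockout library 2 held about 1 unit less on the log2 scale than the other knockout libraries (-1.07), which stood level with the vector libraries. The log2 fold change was -0.23 ± 0.28 with all libraries and 0.05 ± 0.07 without knockout library 2, with a 95% interval of -0.10 to 0.19 (edgeR adjusted p = 0.604 and 0.694). FAS, which encodes the receptor of FAS ligand, was low, with 27 to 87 reads per library. FAS was at 1.38, 2.24 and 2.47 CPM with the vector and 4.11, 1.89 and 2.33 after knockout, and only knockout library 1 lay outside the vector range. At this depth its interval without knockout library 2 was wide (0.01 to 1.32, edgeR adjusted p = 0.150). The decoy receptor gene TNFRSF10C, at 0.220 CPM or less in every library, and EDA2R, which encodes a receptor of ectodysplasin and was at 0.0549 CPM or less, were all but unread.

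Of the other members tied to cell death, PHLDA3 rose. It encodes a small PH-domain protein that competes with the kinase AKT for membrane lipids. PHLDA3 (ENSG00000174307.7, chromosome 1, 201464383 to 201469237) was at 23.0, 21.9 and 18.9 CPM with the vector and 35.3, 60.8 and 33.7 CPM after knockout. All knockout libraries were above the vector range, and knockout library 2 was highest. For PHLDA3 the log2 fold change was 1.02 ± 0.25 with all libraries and 0.69 ± 0.11 without knockout library 2 (adjusted p of 0.141 and 0.000174 in edgeR, the latter at most 0.00664 over the alternatives). In GENCODE 29, 19.1% of its exonic bases are shared with another transcript on the same strand, where ambiguous reads are not counted. AEN, a nuclease gene induced in p53-dependent apoptosis, was at 72.3, 75.4 and 82.2 CPM with the vector and 86.8, 93.5 and 73.0 CPM after knockout. The groups overlapped (log2 0.06 ± 0.08 without knockout library 2, edgeR adjusted p = 0.704). TP53I3, which encodes a quinone oxidoreductase, ranged from 6.81 to 7.52 CPM and from 8.27 to 12.4 CPM, with a log2 fold change of 0.24 ± 0.16 in that fit (edgeR adjusted p = 0.330).

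**Figure D2:**
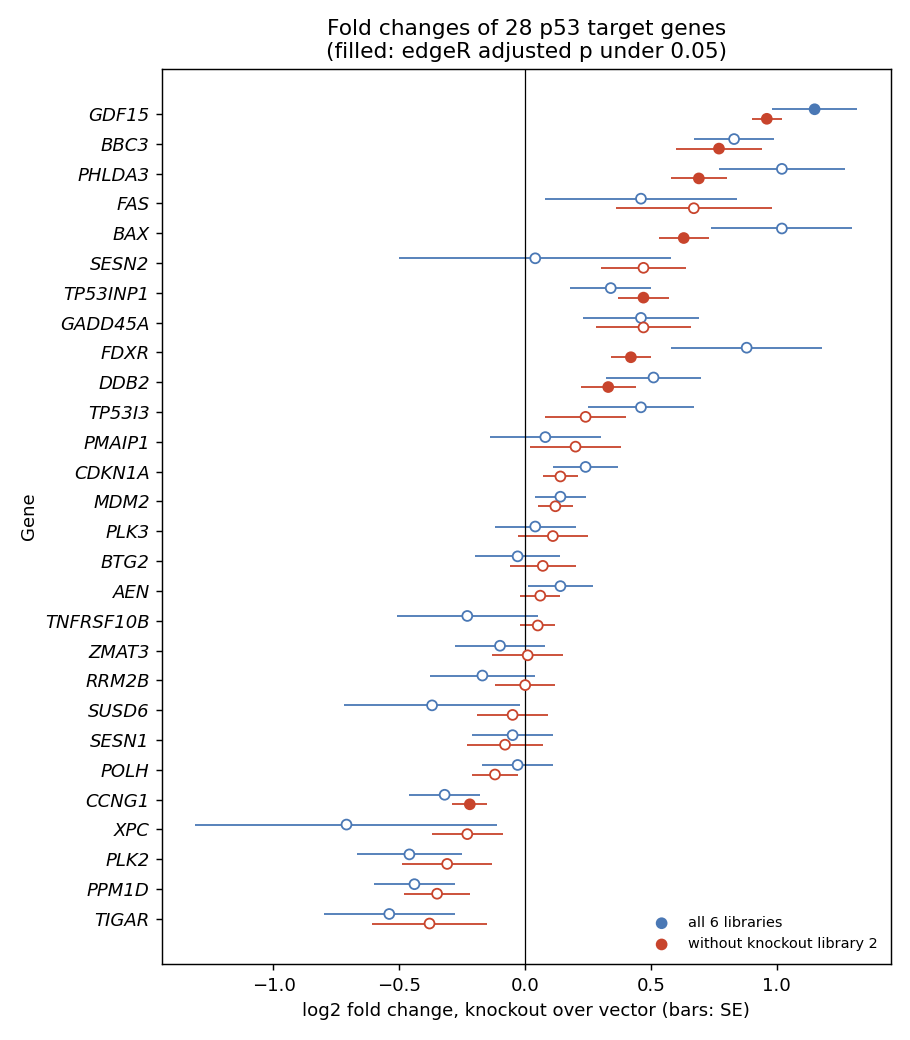
Points give the log2 fold change of each of the 28 tested genes, knockout over vector, and bars its SE. Blue is the fit with all 6 libraries and red the fit without knockout library 2, and filled points have an edgeR adjusted p under 0.05. GDF15 is filled in both fits, 6 more genes above 0 and CCNG1 below 0 are filled in red alone, and CDKN1A and MDM2 sit just above 0 and are open.

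Among the DNA repair members DDB2 rose and the others did not pass. DDB2 encodes the damage sensor that finds ultraviolet lesions for nucleotide excision repair. DDB2 was at 33.1, 37.8 and 27.4 CPM with the vector and 39.0, 56.9 and 43.7 CPM after knockout (ENSG00000134574.12, chromosome 11, 47214465 to 47239240). The groups did not overlap, but vector library 2 and knockout library 1 were nearly level. The log2 fold change was 0.51 ± 0.19 (adjusted p = 0.215 in edgeR) with all libraries. It was 0.33 ± 0.11 without knockout library 2, at an edgeR adjusted p of 0.0490. That call ended when library 1 or 3 of either group was left out (edgeR adjusted p up to 0.355), and also in DESeq2 (adjusted p = 0.0843).

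XPC, the gene of another sensor in the same pathway, was at 16.8, 14.3 and 19.2 CPM with the vector and 12.8, 2.01 and 15.9 CPM after knockout. Knockout library 2 held far less than any other library, while library 1 lay just under the vector range and library 3 within it. The log2 fold change was -0.71 ± 0.60 with all libraries and -0.23 ± 0.14 without knockout library 2 (adjusted p of 0.459 and 0.278 in edgeR). XPC shares 23.8% of its exonic bases with the antisense gene XPC-AS1, and reads that fall in both genes were not counted. RRM2B encodes the p53-inducible subunit of ribonucleotide reductase. RRM2B was at 24.1, 21 and 27.7 CPM with the vector and 25, 15.9 and 23.9 CPM after knockout, and its log2 fold change without knockout library 2 was 0.00 ± 0.12 (edgeR adjusted p = 0.984). POLH, the gene of translesion polymerase eta, was at 58.8, 66.9 and 52.6 CPM and 53.9, 64.6 and 55.8 CPM, with overlapping groups and a log2 fold change of -0.12 ± 0.09 in that fit (edgeR adjusted p = 0.403).

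Of the metabolic members FDXR rose. FDXR encodes ferredoxin reductase, a mitochondrial enzyme of iron-sulfur cluster and steroid synthesis. FDXR (ENSG00000161513.12, chromosome 17, 74862497 to 74873031) was at 47.9, 51.7 and 49.7 CPM with the vector and 69.1, 141 and 64.2 CPM after knockout. The groups did not overlap, and knockout library 2 was above the mean of the other 2 by 1.08 on the log2 scale. Over all libraries the log2 fold change of FDXR was 0.88 ± 0.30 (edgeR adjusted p = 0.207). Without knockout library 2 FDXR rose by 0.42 ± 0.08 (edgeR adjusted p = 0.00121), and that call ended when knockout library 1 was left out too (edgeR adjusted p = 0.0590).

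The sestrin genes encode stress proteins that restrain the growth kinase mTORC1. SESN1 ranged from 11.4 to 14.3 CPM in the vector libraries and from 11.1 to 13.1 in the knockout libraries. SESN2 was at 12.2, 8.79 and 8.13 CPM with the vector and 14.3, 2.64 and 12.9 CPM after knockout. Knockout libraries 1 and 3 were above the vector range and library 2 was far below it. The log2 fold change of SESN2 was 0.04 ± 0.54 with all libraries, and 0.47 ± 0.17 without knockout library 2 (edgeR adjusted p = 0.0532, 0.00874 to 0.312 over the alternatives). TIGAR, the gene of a phosphatase that slows glycolysis, ranged from 4.37 to 4.94 CPM and from 2.45 to 4.30 CPM, without overlap (log2 -0.54 ± 0.26 with all libraries, edgeR adjusted p = 0.255). In GENCODE 29, 42.6% of its exonic bases are shared with another gene on its strand, where ambiguous reads are likewise not counted. For SUSD6, which encodes a membrane protein, the ranges were 12.7 to 16.2 and 5.66 to 16.1 CPM, with the lowest value in knockout library 2 (log2 -0.05 ± 0.14 without that library, edgeR adjusted p = 0.843).

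None of the remaining arrest and stress genes passed in either fit. BTG2, an antiproliferative gene that recruits the mRNA deadenylase, was at 23.0, 17.3 and 23.1 CPM with the vector and 22.3, 17.7 and 22.3 CPM after knockout, almost the same values. GADD45A, a gene of growth arrest and DNA demethylation, ranged from 5.99 to 10.5 CPM and from 10.8 to 12.0 CPM, just without overlap (log2 0.47 ± 0.19 without knockout library 2, edgeR adjusted p = 0.0917). The polo-like kinase genes PLK3 and PLK2 differed in sign. PLK3 had a log2 fold change of 0.11 ± 0.14 in that fit. PLK2 had -0.31 ± 0.18, and its ranges of 6.92 to 7.17 and 3.90 to 5.95 CPM did not overlap (edgeR adjusted p = 0.240). ZMAT3, the gene of an RNA-binding splicing regulator, ranged from 10.9 to 12.8 CPM and from 9.06 to 12.8 CPM.

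The genes with a promoter match did not share 1 response. GDF15, DDB2 and FDXR are among the 7 that rose without knockout library 2, whereas AEN (0.06), FAS (0.67), SESN1 (-0.08) and PLK2 (-0.31, all log2 fold changes in that fit) did not pass. BAX and BBC3 rose and have no match in their windows, which says nothing of sites elsewhere. PHLDA3 and TP53INP1 are among the 6 members without a window.

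Knockout library 2 differed from the mean of knockout libraries 1 and 3 by at least 1 log2 unit in 5 of the 28 tested members (17.9%), XPC (-2.77), SESN2 (-2.32), SUSD6 (-1.31), TNFRSF10B (-1.07) and FDXR (1.08), and in 20.7% of all tested genes with a known length. This difference was lower at greater exonic length across the 28 members (Spearman's rho -0.38) and across 15250 genes (-0.33). The difference between knockout libraries 1 and 3 and the vector libraries was likewise lower at greater exonic length, at rho -0.44 over the members and -0.20 over all these genes. These are descriptions across genes that share the same 6 libraries, and the part of transcript length or RNA quality in the results was not tested.

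**Figure D3:**
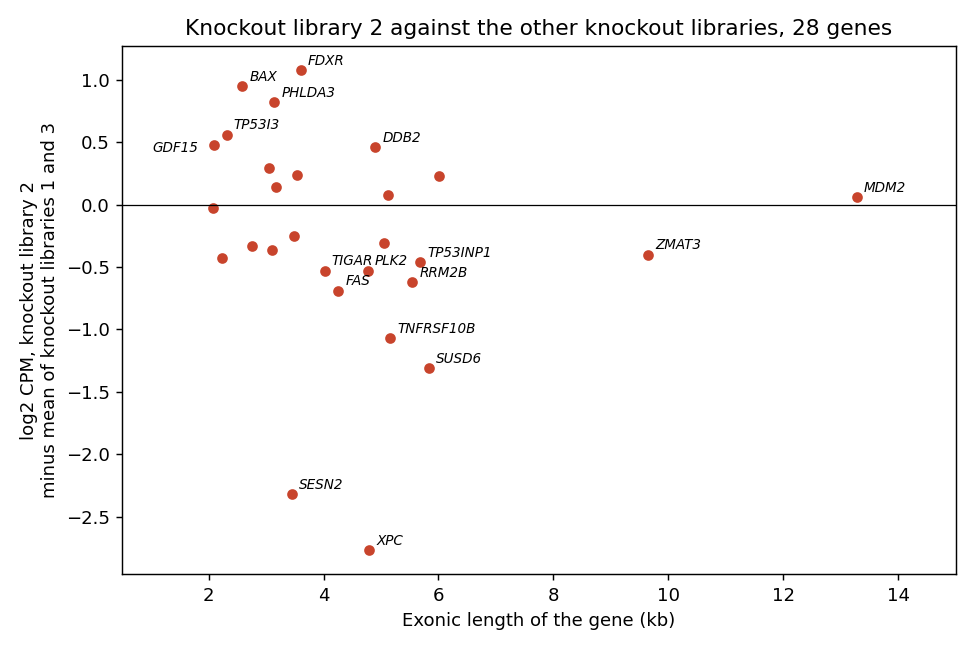
Each point is 1 of the 28 tested genes, placed by the exonic length of the gene in kb and by the log2 CPM of knockout library 2 minus the mean of knockout libraries 1 and 3. The line marks equal levels. BAX, FDXR and PHLDA3 sit about 1 unit above it, SESN2 and XPC more than 2 units below it, and MDM2, the longest at 13284 exonic bases, lies on it.

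The genes around p53 showed no shared direction. MDM4, the partner of MDM2, had a log2 fold change of -0.10 ± 0.20 with all libraries and 0.08 ± 0.09 without knockout library 2. Of 24 tested regulators of p53, 0 passed with all libraries (DESeq2 called 0, and 2 higher and 3 lower had an unadjusted p below 0.05), and 2 rose (8.33%) and 3 fell (12.5%) without knockout library 2. These shares lie near the 10.2% and 8.88% of all genes in that fit, so the regulators named next show single genes and no result of the list. HIPK2, a kinase gene of p53, fell by 0.46 ± 0.07 in the latter fit (edgeR adjusted p = 0.000178). The lysine methyltransferase gene SETD7 fell by 0.43 ± 0.08 and the acetyltransferase gene EP300 by 0.51 ± 0.11 (edgeR adjusted p = 0.000773 and 0.00285). RPL5 and RPL11 encode ribosomal proteins that bind MDM2 when ribosome assembly fails. They rose by 0.23 ± 0.06 and 0.27 ± 0.08 (edgeR adjusted p = 0.0135 and 0.0202), and reads shared with their pseudogenes were not counted.

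A further list of 60 genes described as p53 targets had 56 tested. Over all 15783 genes with all libraries, DESeq2 called 488 higher and 214 lower, and 3420 had an unadjusted edgeR p below 0.05. Of the 56 genes 0 passed in edgeR with all libraries (DESeq2 called 2 higher and 2 lower, and 10 and 4 had an unadjusted p below 0.05). Without knockout library 2, 10 rose (17.9%) and 3 fell (5.36%), beside 10.2% and 8.88% of all genes tested, and the median log2 fold change was 0.09. The 13 calls became 8 without vector library 1, and fewer still without knockout library 1 or 3. The share of all genes called in those fits is not given. NINJ1, whose protein ruptures the plasma membrane of dying cells, rose by 0.57 ± 0.07, and the ribosomal protein paralog RPS27L by 0.48 ± 0.07 (edgeR adjusted p = 1.11e-05 and 6.88e-05). TP53I11 rose by 0.57 ± 0.10, and the carboxylesterase gene CES2 fell by 0.60 ± 0.12 (edgeR adjusted p = 0.000712 and 0.00110). When p21 is induced, genes of the cell cycle are shut down through the DREAM complex. Of 30 such genes 0 passed with all libraries (DESeq2 called 0, and 3 higher and 3 lower had an unadjusted p below 0.05), and 3 rose (10.0%) and 4 fell (13.3%) without knockout library 2, with a median of 0.01. Against 10.2% and 8.88% of all genes these shares too are near the background, and the genes that follow are single values. The proliferation marker gene MKI67 fell by 0.37 ± 0.07 and BUB1B, a spindle checkpoint kinase gene, by 0.49 ± 0.10. FOXM1, a factor of mitotic genes, fell by 0.28 ± 0.07, and CKS1B, which encodes a subunit of cyclin-dependent kinases, rose by 0.40 ± 0.07 (edgeR adjusted p = 0.00124, 0.00174, 0.00850 and 0.000551).

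Several members, GDF15, BBC3, SESN2, TNFRSF10B and PMAIP1 among them, are also known targets of ATF4 or its partner CHOP, the factors of the integrated stress response. A list of 20 ATF4 targets and partners, chosen like the others with earlier results known, was therefore read beside them. It holds none of the p53 members, but absence from the member list does not make a gene free of p53 control. The list therefore cannot separate the response to ATF4 from that to p53, and the part of p53 in its levels was not tested. The background with all libraries was 488 higher and 214 lower of 15783 genes in DESeq2, and 3420 with an unadjusted edgeR p below 0.05. With all libraries 0 of the 20 passed (DESeq2 called 7 higher, and 10 higher and 0 lower had an unadjusted p below 0.05). Without knockout library 2, 16 rose (80.0%, beside 10.2% of all genes) and 0 fell, with a median log2 fold change of 0.39. DDIT4, an inhibitor of mTORC1, rose by 0.95 ± 0.06 in that fit, from 160, 150 and 164 CPM in the vector libraries to 307 and 307 in knockout libraries 1 and 3, and stood at 249 in knockout library 2 (edgeR adjusted p = 6.09e-09). PHGDH, of serine synthesis, rose by 0.73 ± 0.06, the pseudokinase gene TRIB3 by 0.67 ± 0.06 and CHAC1, of glutathione breakdown, by 0.79 ± 0.10 (edgeR adjusted p = 2.60e-07, 9.32e-07 and 1.21e-05). The part of either factor in the level of GDF15 or BBC3 was not tested.

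**Figure D4:**
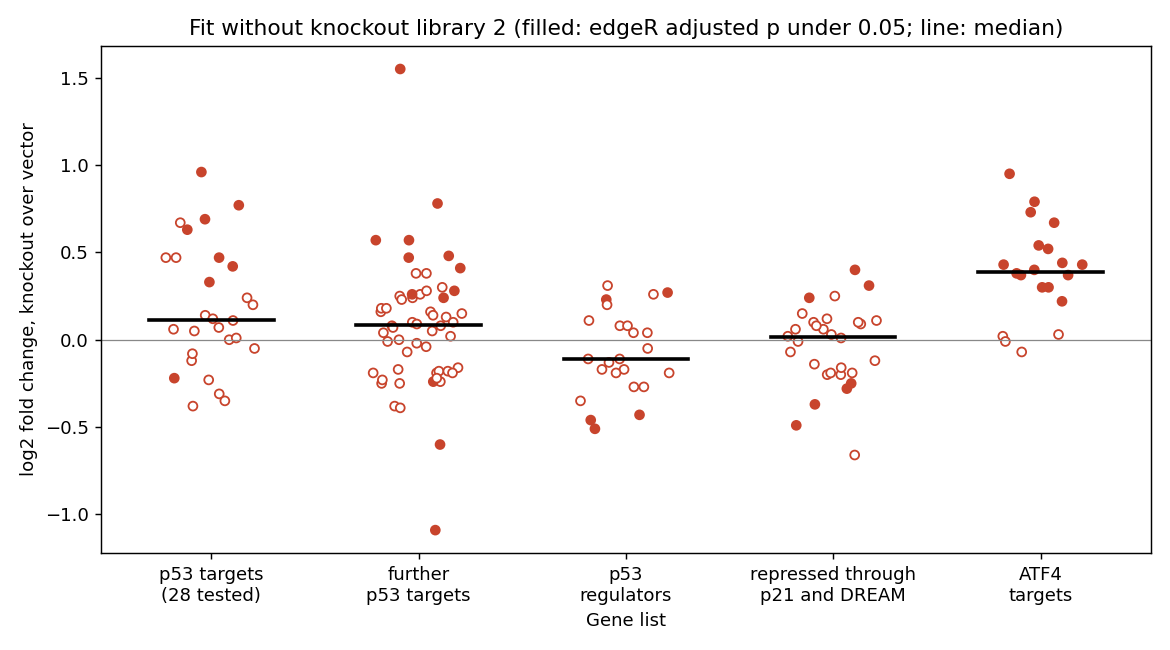
Points are log2 fold changes of single genes, knockout over vector, in the fit without knockout library 2, by gene list, with sideways scatter for clarity. Filled points have an edgeR adjusted p under 0.05 and black lines are medians. The p53 targets, further p53 targets, regulators and genes repressed through p21 spread to both sides of 0 with medians of 0.11, 0.09, -0.11 and 0.01, and the ATF4 targets have a median of 0.39.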

How the data were processed

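The authors deposited 1 file per library with raw read counts per gene, not normalised (62696 gene rows after 4 summary rows). The submitters' processing notes list FastQC, STAR and GRCh38. The sources used here give no tool version or annotation. The library kit was SMARTer mRNA-Seq, per the labels' protocols. The unstranded column was used, since the 2 stranded columns had sums in ratios of 1.02 to 1.04. Summary rows (29.7% to 32.6% of reads per library) stayed out of library sizes and tests. Reads in several genes or places were not counted, and overlap shares come from GENCODE 29, which may differ from the annotation counted.

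The tests used edgeR 4.0.16 under R 4.3.3 (genes kept by filterByExpr, TMM factors, robust quasi-likelihood fit without a block) and Benjamini-Hochberg adjustment over all genes tested and a threshold of 0.05, once with all 6 libraries and once without knockout library 2. SE is the log2 fold change divided by the square root of F, and 95% intervals use its total degrees of freedom. Log2 CPM used a prior count of 2 for correlations and library shifts a pseudocount of 0.1 CPM. DESeq2 1.42.0, other scaling, no count filter, a replicate block and leaving out each library were alternatives. No 2 libraries of a group agreed within sampling noise (chi-square per degree of freedom 3.27 or more).

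The members and gene lists were chosen with earlier results of these data known. Members were named with values in every library if they passed in either fit, had a mean of at least 20 CPM or a mean ratio beyond 1.5, as were CDKN1A, GDF15 and MDM2, and from other lists up to 4 genes with the smallest adjusted p, plus MDM4. Not every result that this rule names is reported here. SESN2, FAS, PPM1D and RPL11 were added after their values were seen.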

Additional observations from a re-analysis of the deposited data

How the results depend on the processing

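With all 6 libraries the count of p53 target genes called was 1 as reported, 0 with RLE size factors, 2 without the filter on low counts, 4 in DESeq2's Wald test, 0 with the replicate block and 0 whenever vector library 1, 2 or 3 or knockout library 1 or 3 was left out. For the further p53 targets it was 0 as reported, 1 without the filter and 4 in DESeq2. Starting from the 5 libraries without knockout library 2, leaving out 1 more gave 5 to 10 called p53 targets against 8, with 5 without knockout library 1 or 3, where the lone knockout library is assumed to vary like the vector libraries. It gave 4 to 18 further targets against 13, and medians of 0.08 to 0.15 against 0.11. In that set the replicate block, which leaves 1 residual degree of freedom, gave 12 called p53 targets, 22 further targets and a median of 0.08. The members it added were SESN2 (0.41, edgeR adjusted p = 0.0125) and GADD45A (0.49, 0.00757) on the higher side and XPC (-0.34, 0.0155) and PPM1D (-0.44, 0.000818) on the lower (log2 fold changes with the replicate block). The share of all genes called is not given for the replicate block, the fit without the filter or the fits with a library left out. Their counts of called genes, 12 and 22 among them, therefore have no background. With the block and without knockout library 2 the edgeR adjusted p went as low as 9.52e-88 (GDF15). With all 6 libraries the block gave GDF15 an edgeR adjusted p of 0.107. No direction of a called member reversed. Deviations of same-numbered libraries correlated at 0.135, 0.194 and 0.0841, each the highest for its library. Vector library 3 was nearly as close to knockout library 1 (0.0762), and every library 2 correlated negatively with libraries 1 and 3 of the other group. The labels give no pairing, and these values do not settle whether there was one. Depth limits FAS, TNFRSF10C and EDA2R most.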
